A study of Mus musculus with 10 samples.

Results

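The comparison described here sets popliteal lymph nodes of mice with adjuvant arthritis that were treated by acupuncture (the group labelled Acu) against nodes of mice with adjuvant arthritis and no acupuncture (the group labelled AIA). It uses 7 of the 10 RNA sequencing libraries of the series, chosen by their group label alone: Acu 4, 6 and 28, and AIA 5, 10, 31 and 38. All were labelled as male BALB/c mice of 6 to 8 weeks, a strain with no transgene in the labels, and as day 15. Both groups had been injected with complete Freund's adjuvant (0.1 ml), killed mycobacteria in oil, in the right hind paw, and only Acu had acupuncture at ST36, a point below the knee. The 3 Control libraries had saline in the paw in place of adjuvant. The sham acupuncture group that the protocols mention was not analysed here, so the effect of needling as such cannot be told apart from that of the point. Nothing in the labels says whether each library is its own mouse, so a p-value here speaks of the spread among libraries, which may be technical.

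The popliteal node drains the hind paw. After an adjuvant injection its B cells multiply in germinal centres and mature into plasma cells, which make antibody in bulk, while neutrophils and monocytes enter from the blood. Sympathetic nerve fibres reach lymph nodes and release noradrenaline, which acts on lymphocytes through adrenergic receptors. The series title names immune cell growth, immune cell polarization and the sympathetic system as its themes, and the genes below follow them.

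The library labelled Acu 4 did not look like a lymph node of a male mouse. Prl8a2, a prolactin of the decidua of the pregnant uterus, was at 3901 FPKM there and at most 0.480 FPKM in the other 6 libraries. FPKM, the deposited unit, is the number of fragments scaled by gene length and library depth. Xist, the RNA that silences an X chromosome in female cells, was at 60.1 FPKM there against at most 0.128 FPKM elsewhere, and the Y-linked genes Ddx3y, Eif2s3y, Kdm5d and Uty were all at 0. Of 14 trophoblast genes, which mark the placenta, 11 were above 1 FPKM in it and 0 in each of the other 6. Cd79a, part of the B cell receptor, was at 0.517 FPKM there and at 218 to 475 FPKM in the others, and Cd3e, part of the T cell receptor complex, at 0.169 FPKM against 12.6 to 36.4 FPKM. Fold changes and list medians of the main groups are therefore given with 7 libraries and again with 6, without the library labelled Acu 4, which leaves 2 Acu libraries; where only 6 are named, the values of the library labelled Acu 4 were left out.

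AIA 10 stood apart as well. Only 15116 genes had reads in it, against 21224 to 24411 in the other 6, at total reads of 13269763 in AIA 10 and up to 18330702. The mean log2(FPKM + 1) of 26 ribosomal protein genes was 10.2 in AIA 10 and 8.40 to 8.73 in the others. Mitochondrially encoded genes took 0.643% of its reads and 1.44% to 7.21% of the reads of the others. Results that move with this library are also given for 5 libraries, the 6 without AIA 10.

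No gene passed the test. With 7 libraries, 0 of 15569 genes (0%) had an adjusted p under 0.05 in limma, a linear model of log2(FPKM + 1) with Benjamini-Hochberg adjustment. With 6 libraries the count was 0 of 16241 (0%), and with 5 it was 0 of 16004 (0%). limma's voom on the reads behind the FPKM also called 0 with 7 and with 6 libraries. At an unadjusted p under 0.05 there were 466 genes higher in Acu (2.99%) and 375 lower (2.41%) with 7 libraries. The same counts were 428 (2.64%) and 193 (1.19%) with 6, and 573 (3.58%) and 711 (4.44%) with 5. The 2 groups did not overlap for 879 genes higher in Acu (5.65%) and 869 lower (5.58%) with 7 libraries, and for 1551 higher (9.55%) and 1263 lower (7.78%) with 6. The 95% confidence interval of a log2 fold change reached a median of 0.879 to either side of its estimate with 7 libraries and 0.802 with 6. These intervals are not adjusted for the number of genes, so smaller changes were mostly not detectable even before adjustment. Far larger estimates also failed the adjusted threshold, such as −2.67 for Iglc1, an antibody light chain gene, with 6 libraries. Directions are relative to a scaling by the median of ratios between libraries. Scaling each library to the same sum of FPKM instead, a sum in which antibody genes weigh heavily, moved the median log2 fold change of all genes from 0.06 to 0.45 with 7 libraries and to 0.52 with 6. The counts at an unadjusted p under 0.05 then became 3039 higher and 63 lower with 7 libraries, and 3194 higher and 34 lower with 6. Under that scaling and with 6 libraries Ighm, Mki67 and Tnf turned from below to above 0, as did the list medians of plasma cell, secretion, mitosis, T cell, M1-type and cytokine genes, while those of antibody constant genes and neutrophil genes stayed below 0. What follows describes levels and differences by library, and none of the single-gene differences passed the adjusted threshold in either fit unless another setting is named.

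**Figure D1:**
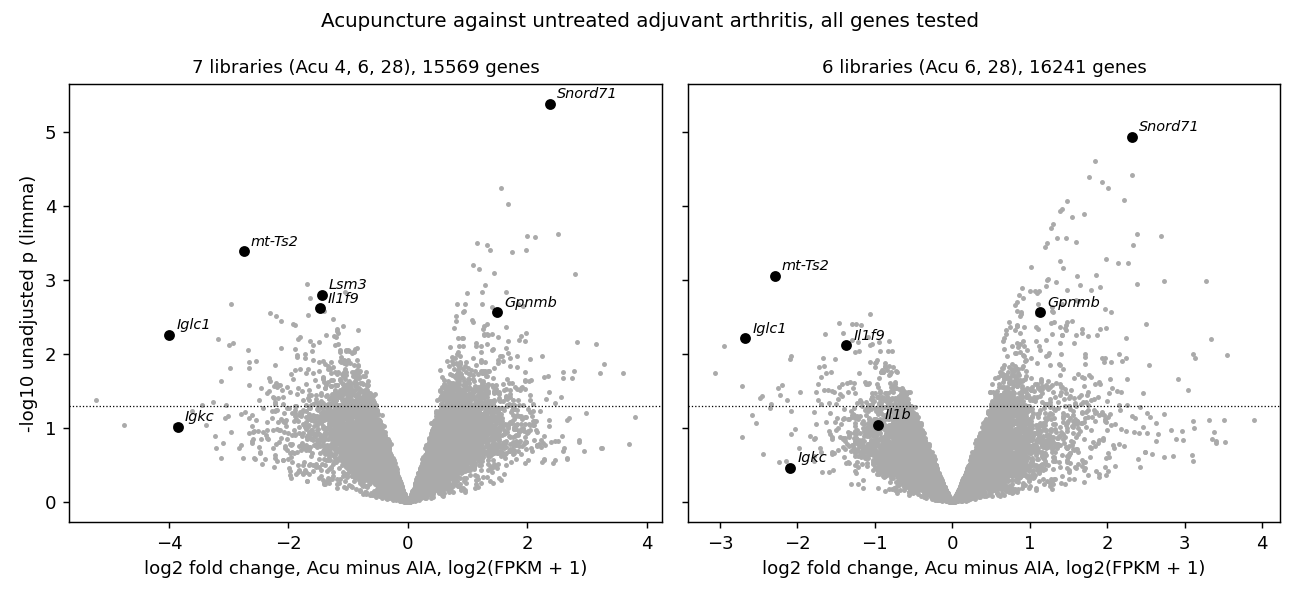
Each point is 1 gene; the x axis is the log2 fold change of Acu minus AIA on the log2(FPKM + 1) scale and the y axis is -log10 of limma's unadjusted p, with 7 libraries at left and 6 at right, and the dotted line marks an unadjusted p of 0.05. Snord71 has the smallest p in both, and no gene passed an adjusted p of 0.05 in either.

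Antibody constant genes lay lower in Acu than in AIA, though not past the test. Igkc, the constant region of the kappa light chain and the most abundant of the antibody genes, was at 151191, 93548, 90825 and 96078 FPKM in AIA 5, 10, 31 and 38. Igkc stood at 624 FPKM in the library labelled Acu 4, 27030 in Acu 6 and 22689 in Acu 28. The groups did not overlap, with or without the library labelled Acu 4. The mean of Acu 6 and 28 was 24543 ± 3030 FPKM (SD, n = 2) against 106556 ± 28845 FPKM (SD, n = 4) in AIA. limma gave Igkc a log2 fold change of −2.09 with 6 libraries (SE 2.03, adjusted p = 0.917) and −3.85 with 7 (SE 2.03, adjusted p = 0.640). limma with a mean-variance trend draws the spread of each gene towards a trend over genes by level. Igkc lay far above the other antibody constant genes, of which Ighg1 had a mean of 8023 FPKM in AIA. With 6 libraries the values of Igkc within each group differed by far less than its SE. That SE and adjusted p therefore rest largely on the trend and do not measure the spread of Igkc itself.

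Iglc1, a lambda light chain constant gene at chr16:19061618-19062071 (mm10, minus strand), was the antibody gene with the smallest p with 6 libraries. It was at 4146, 1366, 1629 and 1041 FPKM in AIA 5, 10, 31 and 38, and at 16.5, 263 and 289 FPKM in the library labelled Acu 4, in Acu 6 and in Acu 28. Every Acu value lay under every AIA value. Its log2 fold change was −2.67 with 6 libraries (limma SE 0.68, adjusted p = 0.913) and −3.99 with 7 (SE 1.05, adjusted p = 0.640). Ighg3, the constant region of IgG3, was at 3963, 3334, 2304 and 3119.8 FPKM in the AIA libraries in that order, at 824 FPKM in Acu 6 and at 661 FPKM in Acu 28, and again did not overlap. Its log2 fold change with 6 libraries was −2.08 (SE 0.59, limma adjusted p = 0.917), and with 7 it was −5.22 (SE 2.14, adjusted p = 0.640).

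Heavy chains of other classes were less even. Ighg1, the constant region of IgG1, was at 14991 FPKM in AIA 5 and 3170.3 in AIA 10, and at 3603 and 2399.7 in Acu 6 and 28, so that the groups overlapped through AIA 10. Ighm, the constant region of IgM, was at 1480.2, 1718, 2207 and 3594 FPKM in AIA and at 1459 and 1306 FPKM in Acu 6 and 28, with no overlap but a gap smaller than the spread within AIA. Igha, of IgA, was at 82.5 to 492 FPKM in AIA and at 218, 170 and 28.3 FPKM in the library labelled Acu 4, Acu 6 and Acu 28, and it was the only constant gene named here whose level in the library labelled Acu 4 lay inside the AIA range. Ighe, of IgE, overlapped too, at 1.89 to 21.9 FPKM in AIA against 4.57 and 0.849 FPKM in Acu 6 and 28. Reads assigned to Ighg2c may come from other, near-identical antibody genes, so its level is uncertain. It was at 114 FPKM in AIA 10 but at 3119.6 to 5247 FPKM in the other AIA libraries, and at 1586 and 842 FPKM in Acu 6 and 28.

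All 12 antibody constant genes of the list had a log2 fold change below 0 with 7, 6 and 5 libraries. The median was −3.41, −1.26 and −1.46, against 0.06, 0.06 and 0.01 over all genes tested. With 6 libraries 5 of the 12 lay lower in Acu with no overlap (Igkc, Iglc1, Iglc3, Ighm and Ighg3), where the share over all genes was 7.78%. An unadjusted p under 0.05 was reached by 2 of the 12 with 6 libraries and by 8 of the 12 with 5, where the shares of all genes that were lower at that p were 1.19% and 4.44%. The list is known from earlier results of these data, so these counts are a description.

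**Figure D2:**
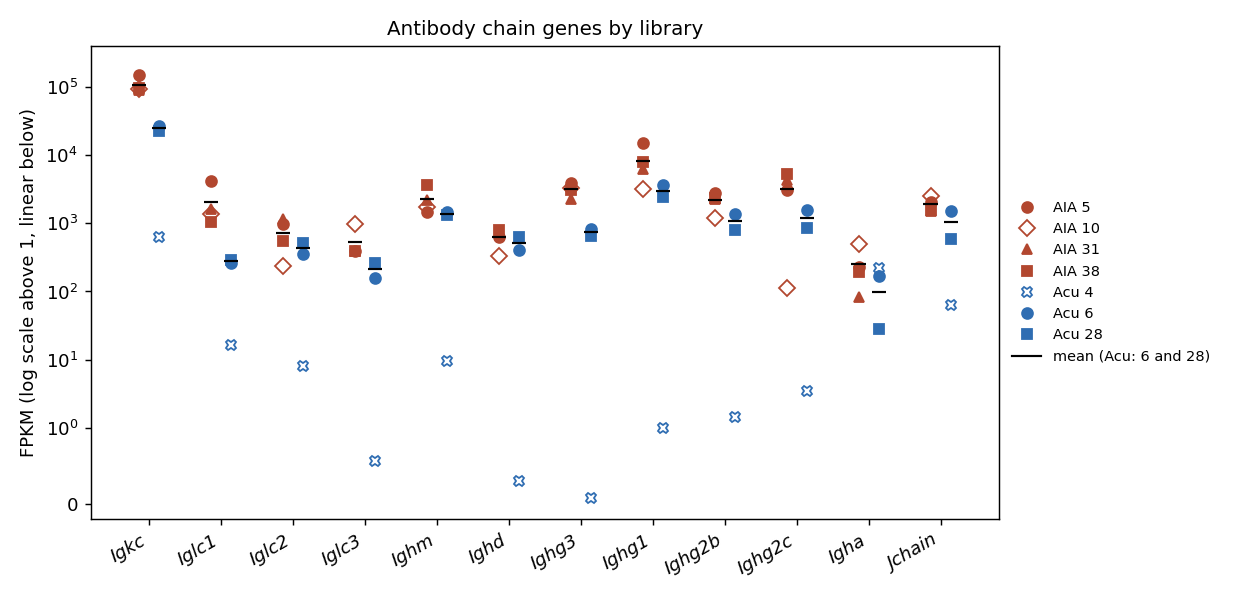
FPKM of 11 antibody constant genes and Jchain in each library, on a log axis that is linear under 1; red marks are AIA, blue marks Acu, open marks AIA 10 and the library labelled Acu 4, and black bars the mean of the 4 AIA libraries and of Acu 6 and 28. Acu 6 and 28 lie under all AIA libraries for Igkc, Iglc1, Iglc3, Ighm and Ighg3, and for Jchain Acu 6 lies just above AIA 31.

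Summed over 429 antibody genes and segments, the share of FPKM was 39.7%, 16.2%, 32.5% and 33.5% in AIA 5, 10, 31 and 38. It was 0.369% in the library labelled Acu 4, 20.8% in Acu 6 and 13.4% in Acu 28. The groups overlapped through AIA 10 alone. The difference in means was −18.9 percentage points with 7 libraries (11.5% ± 10.4, SD, n = 3, against 30.5% ± 10.04, n = 4; two-sided exact permutation p = 0.114, smallest possible 0.0571). With 6 libraries it was −13.3 points (17.1% ± 5.25, n = 2; exact permutation p = 0.267, smallest possible 0.133). Constant genes alone took 9.64% ± 1.72 in Acu 6 and 28 and 23.8% ± 6.76 in AIA, with no overlap (exact permutation p = 0.133, the smallest possible). The variable segments, looked at after the values were seen, had no such steady direction: over 183 tested with 6 libraries the median log2 fold change was 0.40. With no overlap 6 of the 183 were higher and 2 lower, where the shares over all genes were 9.55% and 7.78%. The median was −0.70 without AIA 10, in which only 62 of 218 variable segments had reads against 180 to 192 in the other AIA libraries, and −0.76 over 179 with 7 libraries. In the Control libraries the share of all antibody genes was at most 1.11%. Reads on variable segments numbered 216532, 12364, 258645 and 303226 in AIA 5, 10, 31 and 38. They numbered 225073 in Acu 6, inside the AIA range, and 119619 in Acu 28, under it but for AIA 10. Fewer antibody-making cells and less antibody RNA per cell cannot be told apart in whole nodes. Why constant genes and variable segments differed in Acu 6 was not tested.

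Genes of plasma cells beyond the antibody chains were lower in Acu mostly through Acu 28. Jchain, which joins IgM and IgA into polymers, was at 2039.5, 2557, 1534 and 1582 FPKM in AIA, and at 63.2, 1539 and 584 FPKM in the library labelled Acu 4, Acu 6 and Acu 28. In deposited units Acu 6 lay inside the AIA range by a few FPKM, and below it after scaling between libraries. Mzb1, a chaperone of antibody assembly, was at 852 to 1659 FPKM in AIA, at 748 FPKM in Acu 6 and at 394 FPKM in Acu 28, with no overlap. For the 16 plasma cell genes the median with 6 libraries was −0.36 on the log2 scale, and −1.04 with 7. With 6 libraries 11 of them were below 0 and 5 lay lower with no overlap, where the share over all genes was 7.78%. Their mean level was 5.67 in Acu 6, inside the AIA range of 5.53 to 5.72, and 4.71 in Acu 28. The 20 genes of the unfolded protein response and secretion followed the same pattern, at 5.66 to 6.02 in AIA, 5.87 in Acu 6 and 5.13 in Acu 28, with a median of −0.39 with 6 libraries and −0.13 with 7. Hspa5, the main chaperone of the endoplasmic reticulum, was at 221 to 352 FPKM in AIA, 224 in Acu 6 and 137 in Acu 28. The medians with 6 libraries of both lists turned above 0 (0.02 and 0.01) when Acu 28 was left out, so they rest on that library.

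Genes of the B cell lineage itself were at like levels in AIA and in Acu 6 and 28. The 16 B cell genes averaged 5.26 to 6.02 on the log2(FPKM + 1) scale in AIA, and 5.70 and 6.01 in Acu 6 and 28. Their median log2 fold change was 0.22 with 6 libraries, −0.02 with 5 and −1.55 with 7, since the library labelled Acu 4 averaged 0.59. With no overlap, 2 of the 16 lay lower with 6 libraries, where the share over all genes was 7.78%, and Vpreb3, a chaperone of early B cell receptor assembly, was ranked. Vpreb3 was at 51.7, 51.3, 44.1 and 36.4 FPKM in AIA, at 19.3 FPKM in Acu 6 and at 24.3 FPKM in Acu 28, with no overlap and a log2 fold change of −1.04 (limma SE 0.27, adjusted p = 0.917), and −2.14 with 7 libraries (SE 0.78, adjusted p = 0.640). Of the 14 germinal centre genes 10 were below 0 with 6 libraries, at a median of −0.38, and at −0.68 with 7. Fas, a death receptor that germinal centre B cells carry, was at 14.4 to 21.05 FPKM in AIA and at 10.4 and 11.3 FPKM in Acu 6 and 28, with no overlap. The T cell list, 16 genes, averaged 5.50 to 5.80 in AIA and 5.42 and 5.58 in Acu 6 and 28, with a median of −0.15 with 6 libraries and −1.70 with 7. Genes of naive T cells and recirculation stood under AIA in both: the 10 genes averaged 5.40, 5.52, 5.43 and 5.23 in AIA and 5.21 and 5.13 in Acu 6 and 28, by a narrow gap. Of these 10 genes 9 were below 0 with 6 libraries, at medians of −0.17 with 6, −0.21 with 5 and −1.59 with 7. With 6 libraries 2 of the 10 lay lower with no overlap, where the share over all genes was 7.78%.

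Cell division was measured by 24 genes of G2/M and mitosis and 25 of S phase. Mki67, which dividing cells make, was at 59.4, 34.4, 55.8 and 59.5 FPKM in AIA, and at 3.20, 42.6 and 26.9 FPKM in the library labelled Acu 4, Acu 6 and Acu 28. Acu 6 lay inside the AIA range through AIA 10 and Acu 28 under it. The log2 fold change of Mki67 was −0.58 with 6 libraries (limma SE 0.35, adjusted p = 0.917) and −1.59 with 7 (SE 0.75, adjusted p = 0.640). Ube2c, a ubiquitin ligase partner of late mitosis, was at 29.97 to 123 FPKM in AIA and at 21.9 and 18.3 FPKM in Acu 6 and 28, with no overlap. Of 23 mitosis genes tested 16 were below 0 with 6 libraries and 19 with 5, at medians of −0.20 and −0.30, and 21 with 7, at −0.81. The 25 S phase genes divided 14 above and 11 below 0 with 6 libraries, at a median of 0.03, and with 7 the median was −0.57. Levels of both lists were lower in Acu 28 than in Acu 6 (2.67 against 3.35, and 2.94 against 3.46), and Acu 6 lay inside the AIA range for both.

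Among inflammatory genes Il1f9, which encodes a cytokine of the interleukin 1 family, was ranked in both fits. It lies at chr2:24186476-24193568 (mm10, plus strand). Its level was 7.65, 4.39, 2.87 and 3.32 FPKM in AIA, and 0.648, 1.11 and 0.967 FPKM in the library labelled Acu 4, Acu 6 and Acu 28. All 3 Acu libraries lay under all AIA libraries, and the Control libraries lay between 0.0369 and 0.514 FPKM. The log2 fold change was −1.37 with 6 libraries (limma SE 0.36, adjusted p = 0.917) and −1.47 with 7 (SE 0.33, adjusted p = 0.640). Il1b, which encodes interleukin 1 beta, was at 24.7, 32.8, 9.27 and 14.7 FPKM in AIA, at 8.64 FPKM in Acu 6 and at 9.25 FPKM in Acu 28. The groups did not overlap, though Acu 28 and AIA 31 were all but equal. Il1b had a log2 fold change of −0.96 with 6 libraries (SE 0.48, limma adjusted p = 0.917) and −1.85 with 7 (SE 0.73, adjusted p = 0.640).

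Neutrophil genes varied more within AIA than between the groups. S100a9, a subunit of calprotectin, was at 270, 194, 44.1 and 350 FPKM in AIA, and at 20.2 and 75.0 FPKM in Acu 6 and 28, so the groups overlapped through AIA 31. S100a8, its partner, was at 125, 90.8, 10.9 and 249 FPKM in AIA and at 9.74 and 29.6 FPKM in Acu 6 and 28. The log2 fold changes with 6 libraries were −2.08 for S100a9 (SE 0.91) and −2.08 for S100a8 (SE 1.17), with limma adjusted p = 0.917 for each, and with 7 they were −2.99 and −1.56 (adjusted p = 0.640 for each). Of 18 neutrophil genes tested 16 were below 0 with 6 libraries, at a median of −0.61, 16 of 17 with 5, at −0.78, and 13 of 16 with 7, at −0.59. Their mean level was 2.54, 2.12, 1.51 and 3.85 in AIA and 1.33 and 2.13 in Acu 6 and 28. Slpi, an inhibitor of neutrophil proteases, was at 901, 1745, 587 and 697 FPKM in AIA, and at 81.7, 546 and 451 FPKM in the library labelled Acu 4, Acu 6 and Acu 28, with no overlap. Slpi had a log2 fold change of −0.85 with 6 libraries (limma SE 0.58, adjusted p = 0.917) and −1.71 with 7 (SE 0.77, adjusted p = 0.640).

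The 22 cytokine and chemokine genes leaned one way. Of 20 tested, 19 were below 0 with 6 libraries and 18 with 5, at medians of −0.35 and −0.59, and the median with 7 was −0.95. With 6 libraries 4 of the 20 lay lower with no overlap, where the share over all genes was 7.78%. The list's mean was 3.13 to 3.86 in AIA, 2.90 in Acu 6 and 3.24 in Acu 28, so Acu 28 lay inside the AIA range. Ccl8, a chemokine for monocytes, was at 292, 561, 75.9 and 186 FPKM in AIA and at 73.9 and 118 FPKM in Acu 6 and 28. Cxcl9, an interferon gamma induced chemokine for T cells, was at 83.2 to 191 FPKM in AIA and at 60.1 and 79.4 FPKM in Acu 6 and 28, with no overlap. Tnf, which encodes tumour necrosis factor, overlapped, at 10.05 to 15.1 FPKM in AIA and 6.77 and 15.6 FPKM in Acu 6 and 28, with a log2 fold change of −0.22 (limma SE 0.36, adjusted p = 0.923) and −1.06 with 7 libraries (SE 0.65, adjusted p = 0.640). Il6 was at most 0.436 FPKM in all 7 libraries and was not tested.

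Most polarization genes of macrophages overlapped between the groups. Nos2, the inducible nitric oxide synthase of M1-type macrophages, was at 3.97, 0.340, 3.97 and 5.33 FPKM in AIA and at 4.48 and 5.42 FPKM in Acu 6 and 28. Its log2 fold change was 0.64 with 6 libraries (95% interval −0.85 to 2.13, limma adjusted p = 0.917) and 0.11 with 7 (95% interval −1.36 to 1.58, adjusted p = 0.951). Of 16 M1-type genes 11 were below 0 with 6 libraries at a median of −0.19, and the median was −0.73 with 7. With no overlap, 3 of the 16 lay lower, Il1b and Cxcl9 among them, and 1 higher, where the shares over all genes were 7.78% and 9.55%. Of 15 M2-type genes 9 were below 0 with 6 libraries at a median of −0.06, 2 lay higher with no overlap, and the median was 0.05 with 7. Arg1, the arginase of M2-type macrophages, was at 0.480 to 3.34 FPKM in AIA and at 0.576 and 0.291 FPKM in Acu 6 and 28. Mrc1, the mannose receptor of M2-type macrophages, was at 2.65 to 4.93 FPKM in AIA and at 3.62 and 2.74 FPKM in Acu 6 and 28. General macrophage and monocyte genes, Lyz2, a lysozyme, among them, had a median of −0.12 over 19 genes with 6 libraries and −0.29 with 7.

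Gpnmb was among the ranked genes that stood higher in Acu with 7 libraries. It encodes a membrane glycoprotein of lipid-laden macrophages and lies at chr6:49036546-49070929 (mm10, plus strand). It was at 6.24, 4.96, 6.58 and 5.80 FPKM in AIA, at 30.4 FPKM in the library labelled Acu 4, at 12.1 FPKM in Acu 6 and at 16.2 FPKM in Acu 28. Every Acu library lay above every AIA library, and the mean of Acu 6 and 28 was 14.0 ± 2.80 FPKM (SD, n = 2) against 5.82 ± 0.745 FPKM (SD, n = 4). The log2 fold change was 1.13 with 6 libraries (limma SE 0.24, adjusted p = 0.694) and 1.49 with 7 (SE 0.35, adjusted p = 0.640). The Control libraries ranged from 0.199 to 94.9 FPKM, the highest in the library labelled Control 17, which had Prl8a2 at 10739 FPKM.

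Among regulators of T helper fates, Foxp3, Tbx21 and Gata3 overlapped between AIA and Acu 6 and 28, and Bcl6 did not. Bcl6, the regulator of follicular helper T cells and germinal centre B cells, was at 7.91, 11.6, 6.61 and 6.87 FPKM in AIA and at 2.27, 5.87 and 6.08 FPKM in the library labelled Acu 4, Acu 6 and Acu 28. Its log2 fold change was −0.37 with 6 libraries (limma SE 0.28, adjusted p = 0.917) and −0.73 with 7 (SE 0.36, adjusted p = 0.640). Foxp3, which defines regulatory T cells, was at 6.84, 1.92, 7.54 and 7.54 FPKM in AIA and at 6.64 and 7.54 FPKM in Acu 6 and 28, with a log2 fold change of 0.34 with 6 libraries (limma SE 0.49, adjusted p = 0.920) and −0.67 with 7 (SE 0.79, adjusted p = 0.743). Tbx21, the regulator of Th1 cells, was at 2.84 to 10.99 FPKM in AIA and at 7.97 FPKM in both Acu 6 and 28, with a log2 fold change of 0.50 with 6 libraries (SE 0.48, limma adjusted p = 0.917) and −0.39 with 7 (SE 0.73, adjusted p = 0.836). Gata3, the regulator of Th2 cells, was at 1.71 to 5.21 FPKM in AIA and at 2.44 and 2.35 FPKM in Acu 6 and 28. Among their cytokines, Ifng was at 1.04 to 2.50 FPKM in AIA and at 0.838 and 1.73 FPKM in Acu 6 and 28, and Il17a was at most 1.63 FPKM and not tested.

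**Figure D3:**
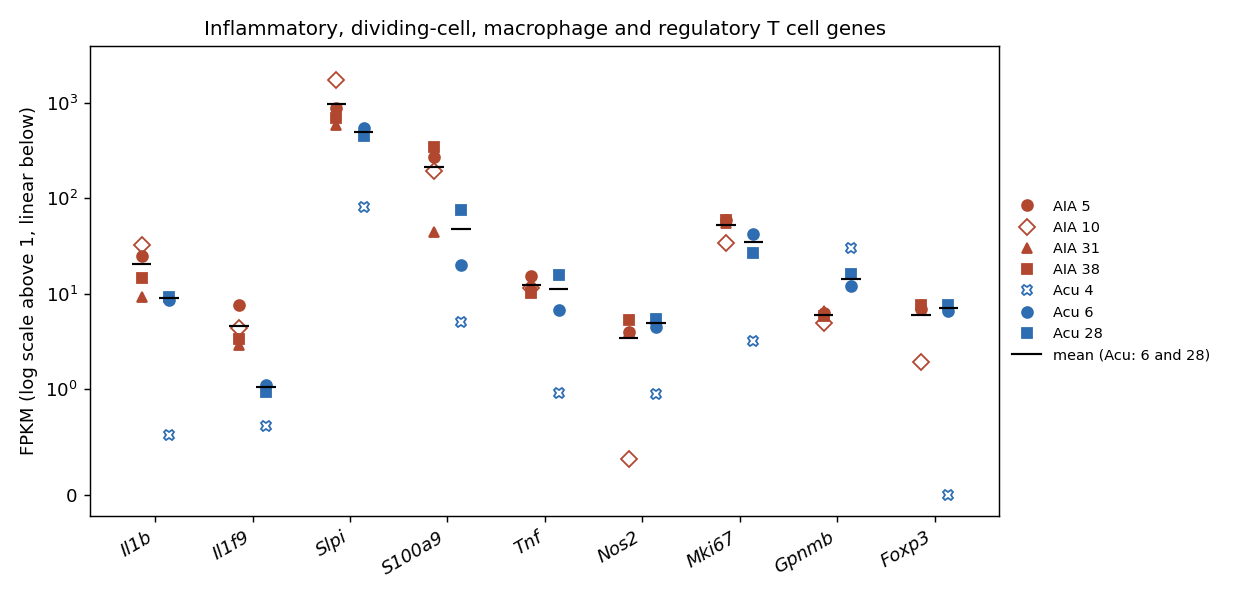
FPKM of 9 genes of inflammation, cell division, macrophages and regulatory T cells in each library, on a log axis that is linear under 1; marks and bars are as in the plot of antibody genes. Il1f9 and Slpi lie lower and Gpnmb higher in all Acu libraries, while Tnf, Nos2 and Foxp3 overlap between Acu 6 and 28 and AIA.

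Of the 22 adrenergic and catecholamine genes 9 could be tested, and with 7 and with 6 libraries 4 of the 9 were above 0 and 5 below. None of the 9 reached an unadjusted p under 0.05 in either fit, where the shares over all genes were 2.99% and 2.41% with 7 libraries and 2.64% and 1.19% with 6. Grk2, a kinase that switches such receptors off, was at 100.3 to 129 FPKM in AIA and at 101 and 108 FPKM in Acu 6 and 28. Maoa, an enzyme that breaks noradrenaline down, was at 0.986 to 1.40 FPKM in AIA and at 1.35 and 1.18 FPKM in Acu 6 and 28.

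Enzymes that make noradrenaline were at or near 0 throughout. Th, the first enzyme of the pathway, was at 0 in all 7 libraries, and Dbh, which completes it, was at 0 in AIA and at most 0.0233 FPKM in Acu. The cell bodies of sympathetic nerves lie outside the node. Slc6a2, the noradrenaline transporter, and Npy, a neuropeptide of sympathetic nerves, were at 39.9 and 78.1 FPKM in the library labelled Acu 4, where Prl8a2 was also high. In Acu 6 and 28 they were at most 0.0238 and 0.352 FPKM. Cyclic AMP response genes, which beta-adrenergic signals can induce, had a median of 0.11 over 16 genes with 6 libraries and 0.29 with 7, and AIA 10 had the lowest mean, 2.43, against 2.81 to 2.92 in the other 5. Of 16 acetylcholine receptor and enzyme genes only 3 could be tested.

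Genes of tissues next to the node differed between libraries of both groups. All 16 skeletal muscle genes tested were above 0 with 6 libraries, at a median of 2.43, and the median with 7 was 0.80. None of the 16 lay higher with no overlap with 6 libraries, where the share over all genes was 9.55%. Acta1, the actin of skeletal muscle, was at 0.843, 88.5, 572 and 101 FPKM in AIA and at 338 and 1032 FPKM in Acu 6 and 28. The mean of the muscle list was 0.75, 2.81, 5.45 and 3.496 in AIA and 4.71 and 5.85 in Acu 6 and 28, so AIA 31 lay between the Acu libraries. Adipocyte genes averaged 2.27, 2.997, 4.13 and 2.85 in AIA and 3.80 and 4.11 in Acu 6 and 28, at a median of 1.09 with 6 libraries, with 14 of 15 above 0, and of 0.28 with 7. With 6 libraries 2 of the 15 lay higher with no overlap and 1 lower, where the shares over all genes were 9.55% and 7.78%. All 5 brown fat genes tested were above 0 with 6 libraries, at a median of 1.67, and 2 lay higher with no overlap. Their list averaged 0.20 to 1.68 in AIA and 1.55 and 2.09 in Acu 6 and 28, and the median with 7 was 0.51. Cfd, a complement factor of fat cells, was at 12.9, 116, 149 and 25.2 FPKM in AIA and at 89.9 and 171 FPKM in Acu 6 and 28. AIA 31 had an adipocyte mean just above those of Acu 6 and 28. It had Igkc at 90825, Ighg3 at 2304 and Iglc1 at 1629 FPKM, above both Acu 6 and 28. For Il1b, AIA 31 was the AIA library nearest to them. AIA 31 is a single library, so nothing is read from these levels, and the part of muscle and fat RNA in the other differences was not tested.

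**Figure D4:**
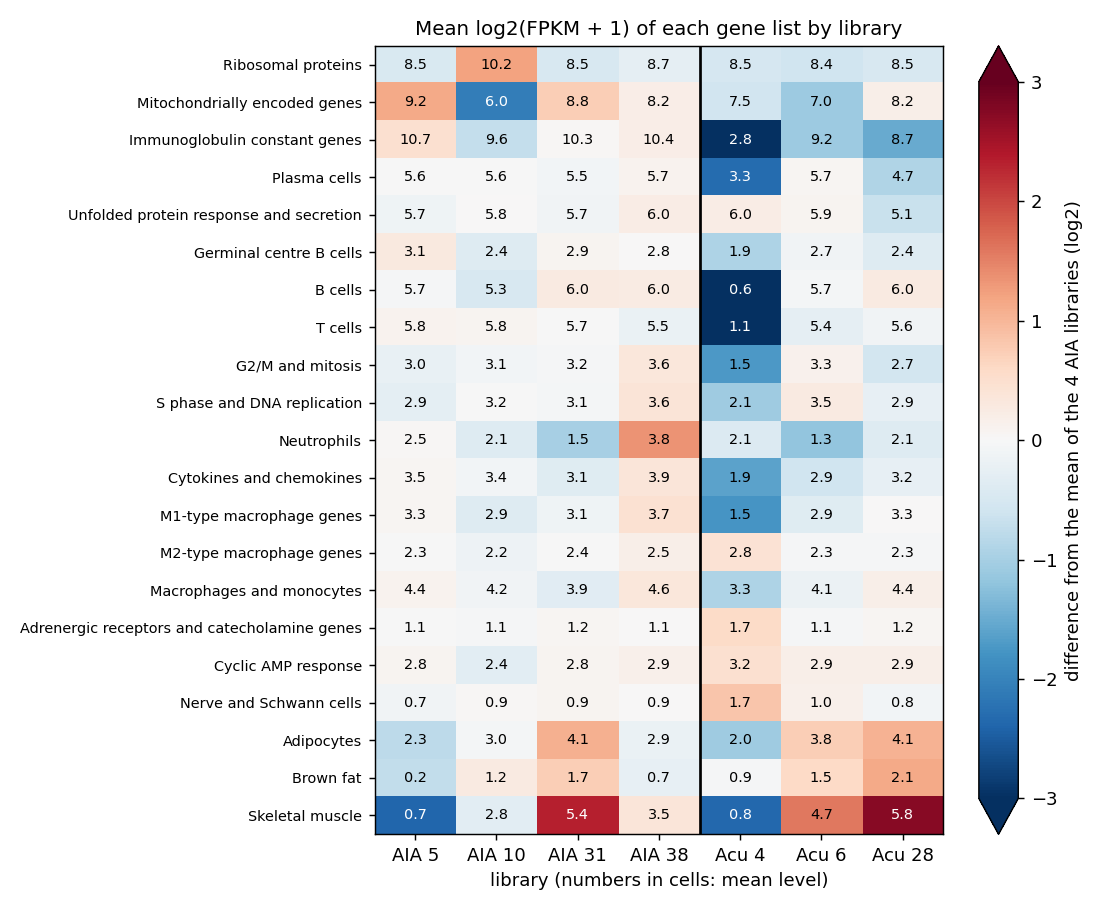
Mean log2(FPKM + 1) of 21 gene lists (rows) in each library (columns); numbers are the mean level and colours the difference from the mean of the 4 AIA libraries, with the scale ending at 3 on either side. The library labelled Acu 4 is low in B and T cell genes, AIA 10 is high in ribosomal protein genes, and muscle genes are high in AIA 31, Acu 6 and Acu 28.

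The smallest p-values belonged to short features with few reads that were higher in Acu, among them small RNA genes and T cell receptor J segments. Snord71, a small nucleolar RNA of the C/D type that guides ribose methylation, ranked first in both fits. It had 0 reads in each of the 4 AIA libraries, and 6, 6 and 8 reads in the library labelled Acu 4, Acu 6 and Acu 28. These correspond to 4.43, 3.48 and 4.69 FPKM, where 3 reads, the limit that a count of 0 allows, would have been 1.99 to 3.11 FPKM in AIA. limma gave it an adjusted p of 0.0637 with 7 libraries and 0.151 with 6. At 0 in AIA, it passed the filter on low values only through the Acu libraries, as did the microRNA genes below, so their p and rank are a description. The Control libraries had it at 4.29, 3.81 and 0.766 FPKM. It lies in an intron of Ap1g1, a gene of vesicle coats that was at 6.19 to 7.80 FPKM in AIA and at 9.11, 10.97 and 6.63 FPKM in Acu, so the host gene overlapped between the groups. Its sequence is shown, from the reference transcripts (GRCm38, chr8:109839295-109839379, plus strand), because it had the smallest p; the last CTGA, the letters of the D box, is in capitals.
Snord71: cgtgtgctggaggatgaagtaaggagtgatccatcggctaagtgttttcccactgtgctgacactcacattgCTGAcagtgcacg

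Of the ranked microRNA genes, Mir6976, Mir1943 and Mir194-1 were ranked in both fits and had 0 reads in every AIA library. Mir6976 had 2, 2 and 3 reads in the library labelled Acu 4, Acu 6 and Acu 28, at or under the limit of 3 reads. Mir1943 had 3, 3 and 10 reads, and Mir194-1 had 7, 2 and 2. They sit in introns of Srf, Tmem184b and the antisense transcript 2010103J01Rik, so reads of unspliced host RNA and of the microRNA hairpin cannot be told apart in these libraries. Gm26904 overlaps Mir6976 and Iars2 overlaps Mir194-1 on the other strand, and reads from these cannot be told apart either, since the use of strand is not known. The host 2010103J01Rik was at 0 FPKM in AIA 5, AIA 10 and the library labelled Acu 4. It was at 0.290 and 0.152 FPKM in AIA 31 and 38 and at 0.254 and 0.257 FPKM in Acu 6 and 28. Srf, a transcription factor, was at 8.21 to 18.1 FPKM in AIA and at 28.6, 19.4 and 15.1 FPKM in Acu, and Tmem184b at 14.8 to 23.7 FPKM in AIA and at 25.9, 17.3 and 16.2 FPKM in Acu. The mature sequences (RefSeq, GRCm38.p6) are shown to let these few reads be placed, with the seed, bases 2 to 8, in capitals. No 2 of the 6 share a seed.
mmu-miR-6976-5p: cAGGGAAGuugagaggaaaauug
mmu-miR-6976-3p: aUCUCCCUcccaacuccccag
mmu-miR-1943-5p: aAGGGAGGaucugggcaccugga
mmu-miR-1943-3p: cAGGUGCCagcuccucccuuc
mmu-miR-194-5p: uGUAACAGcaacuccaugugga
mmu-miR-194-1-3p: cCAGUGGAgcugcuguuacuuc

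Features that had 0 reads in all AIA libraries and some in every Acu library numbered 18 with 7 libraries and 54 with 6. Of the 54, 52 had at most 10 reads in any library and 0 were protein coding. Such features enter the fit only through Acu. The reverse pattern needs reads in AIA 10, where fewer genes had any, so the counts of the 2 patterns are not compared. Classes of features were looked at after the values were seen. Of 142 microRNA genes 29 were higher with no overlap with 6 libraries, of 111 small nucleolar RNA genes 23, and of 52 T cell receptor J segments 21, where the share over all genes was 9.55%. These shares too are set in part by the filter and by AIA 10, in which 27 microRNA genes, 20 small nucleolar RNA genes and 0 J segments had reads against 83 to 119, 78 to 110 and 24 to 37 in the other AIA libraries, so nothing is read from them. The J segments had a median of 1.31 with 6 libraries and 1.03 with 5, over segments that passed the filter, and held 105, 0, 146 and 120 reads in AIA against 550 and 303 in Acu 6 and 28. The constant gene Trac, which every alpha chain uses, was at 126, 25.9, 129 and 145 FPKM in AIA and at 69.7 and 82.6 FPKM in Acu 6 and 28. Both lay inside the AIA range only through AIA 10, and under the other 3 AIA libraries.

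Other ranked genes stood lower in Acu. Lsm3, a splicing and decay factor, was at 17.8, 24.0, 14.9 and 14.7 FPKM in AIA and at 4.11, 5.77 and 7.94 FPKM in the library labelled Acu 4, Acu 6 and Acu 28. Lsm3 had a log2 fold change of −1.25 with 6 libraries (limma SE 0.29, adjusted p = 0.824). Rexo2, an exonuclease of mitochondrial RNA, was at 68.4 to 79.2 FPKM in AIA and at 43.5, 42.2 and 28.7 FPKM in the same Acu libraries, with a log2 fold change of −1.09 (SE 0.27, limma adjusted p = 0.894). Dynll1, a dynein light chain, was at 64.9 to 117 FPKM in AIA and at 57.1, 27.7 and 37.3 FPKM in Acu. Cenpx, a centromere protein, was at 49.7 to 68.5 FPKM in AIA and at 17.6, 23.95 and 30.99 FPKM in Acu. None of these genes overlapped between the groups. The Control libraries lay below AIA for Rexo2 (24.9 to 28.2 FPKM) and Lsm3 (3.43 to 8.13 FPKM).

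mt-Ts2, a mitochondrial serine tRNA, had the smallest p of the features that stood lower. It was at 33.5, 59.8, 42.0 and 27.9 FPKM in AIA and at 2.13, 5.02 and 10.1 FPKM in the library labelled Acu 4, Acu 6 and Acu 28, with no overlap. Its log2 fold change was −2.29 with 6 libraries (limma SE 0.40, adjusted p = 0.462) and −2.75 with 7 (SE 0.47, adjusted p = 0.535). mt-Th, the histidine tRNA, was at 22.4 to 48.7 FPKM in AIA and at 6.56 to 12.6 FPKM in Acu. Mitochondrial tRNA genes as a class had no such steady direction. Over 15 tested with 6 libraries the median was 0.12, and it was −0.59 over 14 with 7 and −0.46 with 5. With 6 libraries 2 of the 15 lay lower with no overlap and 0 higher, where the shares over all genes were 7.78% and 9.55%. The 13 mitochondrially encoded messenger RNA genes had a median of −0.49 with 6 libraries and −1.15 with 5, where 13 of 13 were below 0, and their levels were 9.18, 5.98, 8.78 and 8.23 in AIA and 6.96 and 8.21 in Acu 6 and 28. Acu 28 was thus close to AIA 38.

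Of genes that stood higher, Snrnp40, a splicing protein, was at 0.616, 0.0664, 0.127 and 0.236 FPKM in AIA and at 1.95 and 2.37 FPKM in Acu 6 and 28, but at 0.0945 FPKM in the library labelled Acu 4. For Snrnp40 the log2 fold change was 1.33 with 6 libraries (limma SE 0.24, adjusted p = 0.480). Tacc2, a centrosome protein, was at 0.363 to 1.43 FPKM in AIA and at 2.65, 2.93 and 3.13 FPKM in Acu, with a log2 fold change of 1.28 (SE 0.30, limma adjusted p = 0.824). Tacc2 was at 4.51 to 7.77 FPKM in the Control libraries. Tm4sf19, a membrane protein of bone-resorbing cells, was at most 0.313 FPKM in AIA and at 3.35, 1.73 and 0.832 FPKM in Acu.

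Gene length moved with the comparison, which was also looked at after the values were seen. Among protein-coding genes with 6 libraries, the median log2 fold change ran from −0.34 for the 113 genes of up to 600 bases to 0.15 for the 3552 genes of over 6000 bases. AIA 10 deviated by 0.79 for the shortest and by −0.28 for the longest genes, and Acu 6 by −0.35 and 0.18 in the opposite sense. Without AIA 10 the run was narrower, from −0.14 to 0.06. All 26 ribosomal protein genes, which are short, were below 0 with 6 libraries at a median of −0.56. Without AIA 10 the median was −0.14 and 20 of 26 were below 0. Genes of antibody constant regions had medians of −1.26 with 6 libraries and −1.46 without AIA 10. Leaving out AIA 10 does not take away the tilt of Acu 6. Among the 5 libraries Acu 6 deviated by −0.24 for the shortest and by 0.12 for the longest genes. The part of length in the values of the antibody constant genes, Lsm3, Cenpx and Dynll1 was not tested.

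**Figure D5:**
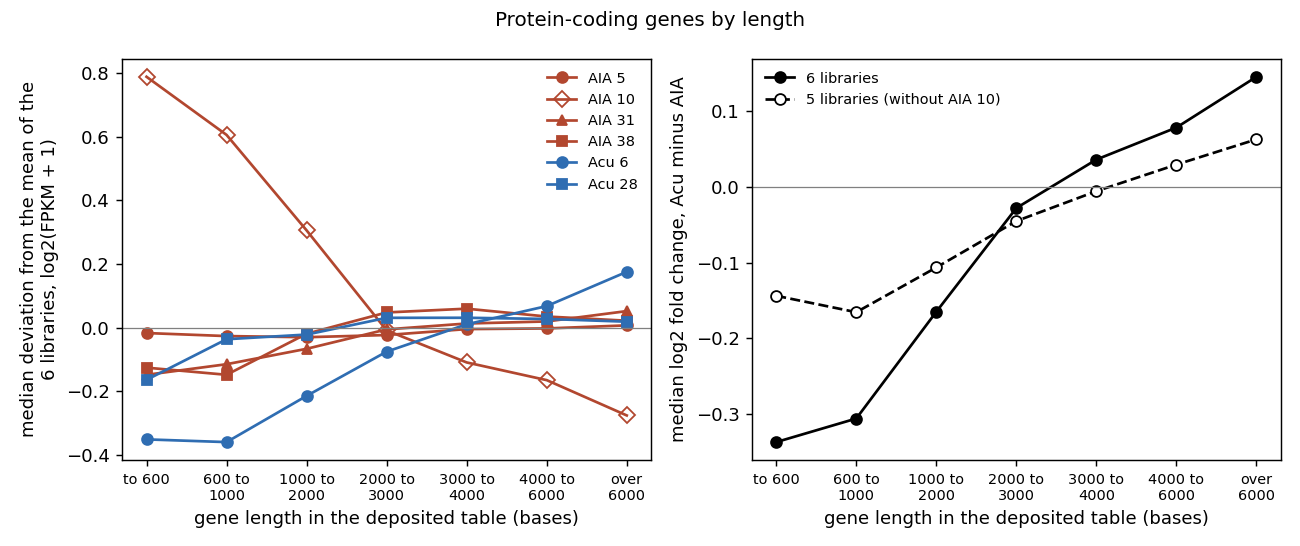
Protein-coding genes in 7 bins of deposited gene length; at left the median deviation of each of 6 libraries from their mean on the log2(FPKM + 1) scale, at right the median log2 fold change of Acu minus AIA with and without AIA 10. AIA 10 is high for short genes and low for long ones, and Acu 6 the reverse.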

How the data were processed

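The authors deposited FPKM for 54987 genes, with gene lengths and coordinates on mm10. HISAT2 2.0.5, StringTie 1.3.3b, featureCounts 1.5.0-p3 and DESeq2 1.16.1 are named without role, per the submitters' processing notes. RNA was extracted with Trizol and libraries made with the NEBNext Ultra kit, per the labels' protocols. The sources used here do not say whether counting used strand, and overlapping, antisense and near-identical genes, antibody genes among them, are therefore uncertain. In each library FPKM times gene length was a whole multiple of 1 step for 100% of values above 0 (tolerance 0.01 step), which gave back the reads, 13269763 to 18330702 in the 7 libraries. Gene IDs matched GENCODE M21 (GRCm38) for 53620 genes, with the same start and end for 97.08% of these.

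FPKM were scaled by the median of ratios, which moved them by little (factors 0.987 to 1.02). FPKM printed for single libraries are as deposited, and means with SD are scaled. log2(FPKM + 1) was fitted by limma 3.58.1 in R 4.3.3 with a mean-variance trend, on the AIA and Acu libraries alone, for genes with at least 0.5 FPKM in at least 3 of 7 or 2 of 6 libraries. The pseudocount of 1 shrinks the fold changes of low genes. Adjustment was by Benjamini and Hochberg over all genes of a fit, with a threshold of 0.05. SE and the 95% intervals are limma's moderated ones. The share of FPKM in antibody genes was compared by a two-sided exact permutation test over libraries. The fits were tested on simulated data. Python 3.11.15, pandas 2.3.3 and matplotlib 3.10.9 did the rest. Alternatives were the pseudocount, the filter, the scaling, the trend, library weights, the Control libraries in the fit, voom on recovered reads and leaving out each library.

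Named genes are the 12 with the smallest p in each direction and fit (at least 1 FPKM in the higher group, no overlap, no antibody or T cell receptor segments and no predicted or Rik genes), up to 3 of the most abundant members of each list described, and a set of immune, macrophage and adrenergic genes. Not all of them are printed. The genes that checked the labels, the host genes, the feature classes and gene length were chosen after values were seen. The comparison, the 47 lists and the named genes were chosen with earlier results of these data known. Some of the named genes are not reported here.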

Additional observations from a re-analysis of the deposited data

Results flagged for a closer look

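In the 4 AIA libraries, 75 measures (genes named in the text, list means and library measures) were checked for 1 library far from the other 3. The gap was over Dixon's 95% limit in 6 measures, of which 5 were AIA 10. Chance alone flags about 1 in 20 groups of 4, and the measures are not independent. AIA 10 had Foxp3 at 1.92 FPKM against 6.84 to 7.54 in the other AIA libraries. Mki67 was at 34.4 FPKM there against 55.8 to 59.5. Iglc3 was the reverse, at 983 FPKM against 386 to 398. The mean of the ribosomal protein genes was 10.2 against 8.51 to 8.73, and that of the cyclic AMP response genes 2.43 against 2.81 to 2.89. The sixth measure was Igkc in AIA 5, at 1.512e+05 FPKM against 90825 to 96078. The 3 Acu libraries are too few for this check.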

How the results depend on the processing

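No paired analysis was possible because the groups share no replicate number. Genes with an adjusted p under 0.05 stayed at 0 with either set of libraries under pseudocounts of 0.1 and 5, a filter of 1 FPKM, FPKM as deposited, no trend, voom and each library left out (0 to 0). With 7 libraries the count was 1 with every library scaled to the same sum of FPKM and 199 with array weights. With 6 it was 56 with no filter, 14 with the same sum, 23 with array weights and 5 with the Control libraries in the fit; the cause was not tested. The same sum, of which antibody genes hold a large part, also moved the median over all genes to 0.45 with 7 libraries and 0.52 with 6. Under that scaling and with 6 libraries the log2 fold change of Ighm turned to 0.0344, that of Mki67 to 0.0591 and that of Tnf to 0.382, near or under the shift. With array weights and 6 libraries Foxp3 was −0.0513. With 1 of 6 libraries left out, Tnf ran from −0.767 to 0.331 and Foxp3 from −0.0518 (without AIA 10) to 0.481. The share of FPKM in antibody genes stayed lower in Acu, at −23.7 to −13.3 percentage points with a library left out of 7 (−13.3 without the library labelled Acu 4), and at −18.1 to −9.63 with a library left out of 6. At an unadjusted p under 0.05, 167 genes were left without Acu 6 and 1284 without AIA 10, of 621 with 6 libraries, and 426 without AIA 5 and 1326 without Acu 28, of 841 with 7. With either of Acu 6 and 28 left out of 6, the lone one is assumed to vary like AIA.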

Other observations

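The mean levels of the 5 lists given here, chosen with earlier results of these data known, overlapped between AIA and the Acu libraries 6 and 28. The 23 interferon gamma response genes averaged 4.64 to 5.46 on the log2(FPKM + 1) scale in AIA and 4.73 and 4.85 in Acu 6 and 28, with 14 of 23 below 0 and a median log2 fold change of −0.28 with 6 libraries. The 25 type I interferon response genes averaged 3.80, 4.43, 3.95 and 5.27 in AIA 5, 10, 31 and 38, and 3.74 and 4.52 in Acu 6 and 28, so that AIA 38 was the highest of these libraries. Dendritic cell genes averaged 3.33 to 3.72 in AIA and 3.25 and 3.40 in Acu 6 and 28. Genes of blood vessel endothelium had 13 of 17 above 0 at a median of 0.18, with means of 2.40 to 2.73 in AIA and 2.72 and 2.74 in Acu 6 and 28. Fibroblast and matrix genes had a median of 0.01 with 6 libraries and 1.15 with 7, and averaged 7.57 in the library labelled Acu 4 against 3.34 to 4.04 in the other 6.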
